A study of Mus musculus with 6 samples.

Results

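The genes described are 10 members of the PARP family, chosen by gene symbol: Parp1, Parp2, Parp3, Parp4, Parp8, Parp9, Parp10, Parp12, Parp14 and Tiparp. They are 10 of 24346 gene symbols given in FPKM (fragments per kilobase of transcript, scaled to the number of mapped fragments), and all 10 passed the filter on low values, a 6-sample mean of 1 FPKM or more, which 10597 genes passed. Both the genes and their division into interferon-linked PARPs (Parp9, Parp10, Parp12 and Parp14), DNA-damage PARPs (Parp1, Parp2 and Parp3) and others (Parp4, Parp8 and Tiparp) were set with the differences between the 2 cell lines already known. The differences of the 10 genes are therefore given as a description with no p-value, and where their limma calls are counted, nothing is concluded from them. RNA sequencing compared 3 samples of the parental line CT26.mMR1 (mouse colorectal tumor cells that carry mouse MR1 by retroviral transduction, labelled MR1-overexpressing) with 3 samples of M8, labelled as an MR1-overexpressing mutant. The sample titles of both lines carry the label cl9, and the paper does not say what it stands for. M8 was obtained from CT26.mMR1 with the mutagen ENU and cloned by limiting dilution, so it carries the same transgene. Effects of ENU and of the cloning cannot be told apart. M8 was picked from a mutant screen for stronger activation of a MAIT cell reporter and for high MR1 expression, and it stands for 1 mutant line. The labels do not say that the samples of a line came from separate cultures, so the errors measure the spread between these samples, which may be technical. As the RNA is from bulk cells, fewer cells of a type and less RNA per cell cannot be told apart.

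PARP enzymes take ADP-ribose from NAD and attach it to proteins or nucleic acids. Parp1, Parp2 and the tankyrases build chains of it, while most other members add a single unit and a few have lost the activity. Parp1, Parp2 and Parp3 are activated at DNA breaks. Parp9, Parp10, Parp12 and Parp14 are induced by interferon in many cell types, are linked to antiviral defence, and are opposed by viral enzymes that remove ADP-ribose.

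The samples had between 13747 and 14357 symbols above 0, and the relative depth recovered from the values of low genes was 1.04 to 1.17 in the parental samples and 0.845 to 0.958 in M8, so the M8 values rest on fewer reads. Across genes, log2(FPKM + 1) correlated with a Pearson's r of 0.994 to 0.995 within a line and 0.989 to 0.992 between the lines. Of 10 colon epithelium markers, 3 reached a mean of 1 FPKM (Krt18, Krt20 and Lgals4), while Epcam, Cdh1, Krt19 and Cdx2 were listed at 0 in every sample although the label gives colon as the tissue. The summed level of the 10 was 41.9 to 57.7 FPKM in the parental samples and 48.2 to 50.2 FPKM in M8. All 6 fibroblast markers reached a mean of 1 FPKM, with sums of 675.4 to 718.7 and 672.5 to 705.1 FPKM. Of 10 blood and immune cell markers and 3 endothelial markers, 0 did, and the immune markers summed to at most 0.104 FPKM in any sample. The sums overlapped between the lines, but single markers did not. Of the 3 epithelial markers at 1 FPKM or more, Krt20 (15.1 to 19.8 FPKM in parental against 10.8 to 12.7 in M8) and Lgals4 (1.29 to 2.15 against 0.585 to 0.795) were lower in every M8 sample. Of the 6 fibroblast markers, Col1a2, Dcn and Pdgfra were lower and Col1a1 and Pdgfrb higher in every M8 sample. The part of these markers in the PARP differences was not tested.

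The start regions of the genes were compared first, because the interferon-linked members are set apart by what is known to induce them. The windows are RefSeq sequence of the GRCm38.p6 build, from 250 bases before to 50 bases after a gene's start, and 7 of the 10 members had an entry. Parp9, Parp10 and Parp14 had none. Each window was searched on both strands for the core of the interferon-stimulated response element (ISRE; GAAANNGAAA), the core of the interferon-gamma activated site (GAS; TTCNNNGAA) and the core of the xenobiotic response element bound by the aryl hydrocarbon receptor (GCGTG). Of 32851 windows of this length, 3.44% held the ISRE core, 8.30% the GAS core and 32.4% the xenobiotic core. The 3 windows below are shown because they belong to the member with the largest difference and to the 2 PARP-type genes whose windows held an ISRE match. Capitals mark ISRE and GAS matches.
Parp12 (chr6:39118300-39118599, minus strand): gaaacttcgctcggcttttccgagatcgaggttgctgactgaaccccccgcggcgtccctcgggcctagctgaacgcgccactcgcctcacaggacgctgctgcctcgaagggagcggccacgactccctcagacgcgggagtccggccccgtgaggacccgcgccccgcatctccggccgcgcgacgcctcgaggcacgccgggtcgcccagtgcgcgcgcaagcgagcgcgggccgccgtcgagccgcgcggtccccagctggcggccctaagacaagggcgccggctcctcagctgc
Parp4 (chr14:56575369-56575668, plus strand): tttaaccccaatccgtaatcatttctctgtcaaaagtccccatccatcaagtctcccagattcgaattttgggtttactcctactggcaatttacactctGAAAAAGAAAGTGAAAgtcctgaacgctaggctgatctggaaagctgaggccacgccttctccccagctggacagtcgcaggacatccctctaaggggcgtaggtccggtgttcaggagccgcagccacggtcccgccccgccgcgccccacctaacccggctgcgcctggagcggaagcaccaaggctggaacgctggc
Parp11 (chr6:127446590-127446889, plus strand): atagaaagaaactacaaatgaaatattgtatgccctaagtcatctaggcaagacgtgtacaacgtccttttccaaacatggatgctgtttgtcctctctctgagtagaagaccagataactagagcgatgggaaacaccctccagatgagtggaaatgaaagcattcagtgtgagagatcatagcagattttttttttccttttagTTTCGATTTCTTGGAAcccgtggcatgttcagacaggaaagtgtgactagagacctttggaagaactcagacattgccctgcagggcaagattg

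The Parp12 window held neither the ISRE nor the GAS letters, and its GC content was 73.7%, with 46 CpG dinucleotides. The median GC content of all windows was 52.7%, with an interquartile range of 45.7% to 61.7%. In the Parp4 window, 2 overlapping ISRE matches began at positions -150 and -144 relative to the start. Parp4 encodes the PARP of vault particles, and its FPKM values overlapped between the lines. The first of 2 windows of Parp11, a mono-ADP-ribosyltransferase outside the 10 members, held an ISRE match on the reverse strand at position -44, which overlapped a GAS match at position -37. Among the members' windows the ISRE core was found only in Parp4 and the GAS core in 0 of 7, while the xenobiotic core was found in 7 of 7. These 7 windows had a GC content of 56.7% to 73.7%, above the median of all windows, and the xenobiotic core holds a CpG. The part of GC content in this count was not tested. A match is a description of letters, and a window without one says nothing of sites elsewhere.

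Parp12, a mono-ADP-ribosyltransferase with CCCH zinc fingers that restricts several viruses, differed most. It lies at chr6:39086412-39118349 on the minus strand. Its FPKM was 31.4, 31.8 and 31.5 in parental samples 1 to 3 and 53.6, 54.8 and 49.7 in the M8 samples. Every M8 sample was above every parental sample, and the 3 parental values differed little from each other. The mean was 31.6 ± 0.178 FPKM (SD, n = 3) in the parental samples and 52.7 ± 2.65 FPKM (SD, n = 3) in M8, a ratio of 1.67. On the log2(FPKM + 1) scale, which understates the change of low genes, the difference was 0.72 with a standard error of 0.046. Ordered from the most raised gene downwards, this difference ranked 29 among the 10597 genes.

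Parp14, a large mono-ADP-ribosyltransferase with macrodomains that bind ADP-ribose, was the lowest of the interferon-linked members in level. Its FPKM was 11.7, 10.3 and 9.59 in the parental samples and 14.6, 14.1 and 13.8 in M8, with means of 10.5 ± 1.05 and 14.2 ± 0.380 FPKM (SD, n = 3 each). The groups did not overlap, the ratio was 1.35 and the log2 difference 0.40 (standard error 0.069).

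Parp10, a mono-ADP-ribosyltransferase on chromosome 15 (chr15:76232995-76243440, minus strand), had 32.4, 32.6 and 31.4 FPKM in the parental samples and 41.6, 40.9 and 38.9 FPKM in M8. The lines did not overlap. Its mean went from 32.1 ± 0.636 to 40.5 ± 1.42 FPKM (SD, n = 3 each), a ratio of 1.26 and a log2 difference of 0.32 (standard error 0.044).

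Parp9 has macrodomains and acts in a complex with the ubiquitin ligase Dtx3l. It had 20.6, 20.6 and 19.4 FPKM in the parental samples and 26.0, 24.8 and 23.1 FPKM in M8. Again all 3 M8 values were higher. The means were 20.2 ± 0.690 and 24.6 ± 1.47 FPKM (SD, n = 3 each), with a ratio of 1.22 and a log2 difference of 0.27 (standard error 0.055). Within M8, replicate 3 was the lowest sample for each of these 4 genes. Among the parental samples, replicate 3 was the lowest for Parp9, Parp10 and Parp14, but not for Parp12.

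**Figure D1:**
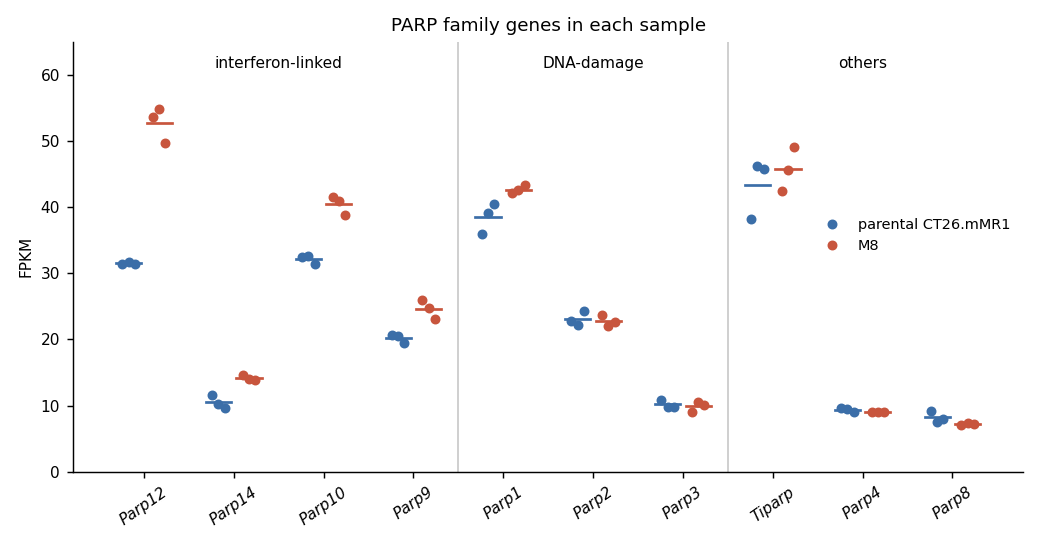
FPKM (vertical axis, linear from 0) of the 10 PARP family genes in each sample, with blue points for the 3 parental samples, red points for the 3 M8 samples and a bar at each mean. The red points lie wholly above the blue points for Parp12, Parp14, Parp10, Parp9 and Parp1, and wholly below them for Parp8, while the points of the other 4 genes overlap.

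Among the DNA-damage PARPs, Parp1 (chr1:180568891-180600999), the main sensor of DNA breaks, had 35.9, 39.2 and 40.4 FPKM in the parental samples and 42.1, 42.5 and 43.3 FPKM in M8. The lines did not overlap, but the highest parental and the lowest M8 value were close. Its means were 38.5 ± 2.33 and 42.7 ± 0.608 FPKM (SD, n = 3 each), with a ratio of 1.11 and a log2 difference of 0.15 (standard error 0.050). Parp2, which shares the repair role of Parp1, had 22.7, 22.2 and 24.3 FPKM in the parental samples and 23.7, 22.0 and 22.6 FPKM in M8. Its lines overlapped, and the log2 difference was -0.017 (standard error 0.051). Parp3, which acts at double-strand breaks, had 10.9, 9.78 and 9.83 FPKM in the parental samples against 9.00, 10.6 and 10.1 FPKM in M8. These values overlapped too, with a log2 difference of -0.039 (standard error 0.071).

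The 3 other members showed no common direction. Tiparp, a mono-ADP-ribosyltransferase induced by the aryl hydrocarbon receptor, had 38.2, 46.3 and 45.8 FPKM in the parental samples and 42.5, 45.6 and 49.1 FPKM in M8. The lines overlapped, and the log2 difference was 0.076 (standard error 0.078). Parp4 had 9.70, 9.42 and 9.05 FPKM in the parental samples and 8.97, 9.09 and 9.11 FPKM in M8, which also overlapped (log2 difference -0.047, standard error 0.053). Parp8, a little-studied mono-ADP-ribosyltransferase, had 9.18, 7.60 and 7.98 FPKM in the parental samples and 7.09, 7.42 and 7.16 FPKM in M8. All 3 M8 values of Parp8 were lower than the parental ones. Its mean was 8.25 ± 0.822 FPKM (SD, n = 3) in the parental samples and 7.22 ± 0.171 FPKM (SD, n = 3) in M8, and the log2 difference was -0.17 (standard error 0.072).

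By limma across all genes, with a Benjamini-Hochberg adjusted p below 0.1 as the threshold, 5 of the 10 members were past it and higher in M8 (Parp1, Parp9, Parp10, Parp12 and Parp14), where 21.2% of all genes tested were higher. With limma 0 members were past it and lower, and 1 (Parp8) had an unadjusted p below 0.05 in that direction, where 16.5% of all genes were past the threshold and lower. The lines did not overlap for 6 of the 10 members, against 45.2% of all genes tested. M8 was the higher line in 5 of these, against 24.8% of all genes, and the lower line in 1, against 20.4%. As the members were chosen with this contrast known, nothing is read from these shares. The log2 difference had a median of 0.36 in the 4 interferon-linked PARPs (0.27 to 0.72), -0.017 in the 3 DNA-damage PARPs (-0.039 to 0.15) and -0.047 in the other 3 (-0.17 to 0.076). It was 0.11 over the 10 members and 0.0069 over all genes tested. The median of the 10 members was 0.053 without parental replicate 1, 0.080 without M8 replicate 3 and 0.043 with quantile normalization. The median of the DNA-damage PARPs was close to 0 and changed sign without parental replicate 1 (0.0088) or 3 (0.019) or M8 replicate 1 (0.021) or 2 (0.0060). To show how far the processing moves these calls, and not as a test of the members, they were repeated under 16 alternatives. Parp9, Parp10, Parp12 and Parp14 were past the threshold in all 16, with log2 differences of 0.67 to 0.76 for Parp12, 0.34 to 0.47 for Parp14, 0.27 to 0.35 for Parp10 and 0.23 to 0.32 for Parp9. Parp1 stayed past it in 11 of 16. It was not past it with quantile normalization, without parental replicate 1 or without any 1 of the 3 M8 replicates, and its log2 difference was 0.083 to 0.18 over the alternatives. Parp8 was past it and lower in 3 of 16, with TPM, with upper-quartile scaling and without parental replicate 2, and its log2 difference was -0.22 to -0.096. The differences of Parp2 (-0.053 to 0.019), Parp3 (-0.086 to 0.021) and Tiparp (-0.012 to 0.13) changed sign among the alternatives, and none of these genes was past the threshold in any of them.

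The order of the genes by level differed between the lines. FPKM is a value per transcript length, so levels of different genes can be set side by side, but only roughly. The gene annotation and the strand setting of the counting, on which such levels depend, are not given in the sources used here. In parental cells Tiparp was the highest member (43.4 ± 4.56 FPKM, SD, n = 3), followed by Parp1, Parp10 and Parp12. The values of Tiparp overlapped those of Parp1, and the values of Parp10 overlapped those of Parp12. Parp2 and Parp9 followed, and Parp14, Parp3, Parp4 and Parp8 were lowest, with Parp14 overlapping Parp3 and Parp4 overlapping Parp8. In M8, Parp12 ranked first and its 3 values did not overlap those of Tiparp, which came second with 45.7 ± 3.30 FPKM (SD, n = 3). Tiparp overlapped Parp1, Parp9 overlapped Parp2 and Parp3 overlapped Parp4 in M8, and the other neighbours in the order did not overlap.

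The summed FPKM of the 10 members was 227 ± 3.89 in the parental samples and 269 ± 2.46 in M8 (SD, n = 3 each). The interferon-linked PARPs made up 43.2%, 41.5% and 40.1% of this sum in the parental samples and 50.4%, 49.5% and 47.0% in the M8 samples, which did not overlap. The share of the DNA-damage PARPs was 31.6% ± 0.823 in the parental samples and 28.0% ± 0.438 in M8 (SD, n = 3 each), while their summed level was 71.8 ± 2.54 and 75.3 ± 0.591 FPKM. The summed level of the interferon-linked PARPs was 94.4 ± 2.25 and 132.0 ± 5.62 FPKM, so the smaller share of the DNA-damage PARPs in M8 is not a lower level. Parp12 alone made up 13.9% ± 0.205 in the parental samples and 19.6% ± 0.819 in M8 (SD, n = 3 each). The FPKM of Parp12 was 0.875, 0.811 and 0.778 times that of Parp1 in the parental samples and 1.27, 1.29 and 1.15 times in the M8 samples. Parp12 was thus below Parp1 in every parental sample and above it in every M8 sample.

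**Figure D2:**
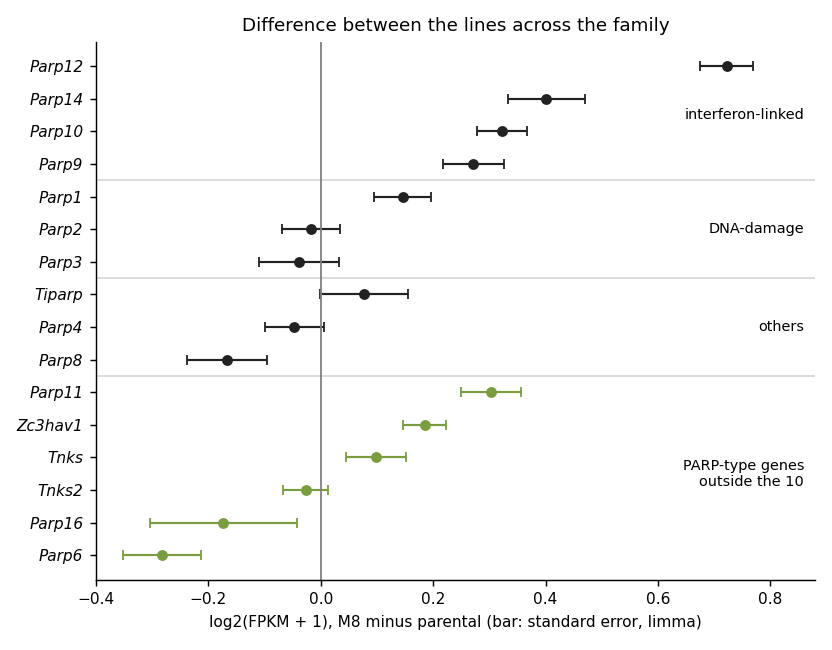
Difference in log2(FPKM + 1) between M8 and parental cells (horizontal axis) for the 10 members (black) and 6 PARP-type genes outside them (green), with the limma standard error as a bar. The 4 interferon-linked members lie between 0.27 and 0.72, Parp1 at 0.15, and the other 5 members between -0.17 and 0.076.

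The 6 further PARP-type genes, from a list written from background knowledge but with earlier results of these data known, went in both directions. The same holds for the lists that follow, so the adjusted p-values of their genes are no independent support. By limma, 2 were higher and 1 was lower in M8. Parp11 was higher, with 12.0, 12.4 and 11.2 FPKM in the parental samples and 14.9, 14.5 and 15.1 FPKM in M8 (log2 difference 0.30, standard error 0.053, limma adjusted p = 0.00351). Zc3hav1 encodes the antiviral protein ZAP, which binds CpG-rich viral RNA and has no ADP-ribosyltransferase activity. Its level was 67.2 ± 1.32 FPKM in the parental samples and 76.6 ± 1.48 FPKM in M8 (SD, n = 3 each), without overlap (log2 difference 0.19, standard error 0.038, limma adjusted p = 0.00749). Parp6, a mono-ADP-ribosyltransferase, was lower, with 14.5, 16.9 and 17.2 FPKM in the parental samples and 13.2, 12.5 and 13.6 FPKM in M8 (log2 difference -0.28, standard error 0.069, limma adjusted p = 0.0153). Parp16, an enzyme of the endoplasmic reticulum, was not past the threshold (log2 difference -0.17, limma adjusted p = 0.347), nor were the tankyrases Tnks (0.098, limma adjusted p = 0.193) and Tnks2 (-0.027, limma adjusted p = 0.642). The difference of Parp16 was -0.29 to -0.058 with a replicate left out. The calls of Parp11, Zc3hav1 and Parp6 held in all 16 alternatives, and the difference of Zc3hav1 was 0.11 with quantile normalization. The Zc3hav1 window held neither the ISRE nor the GAS letters, and that of Parp16 held a GAS match.

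Several of these genes lie near each other. Parp14 (chr16:35831892-35871518, minus strand) ends 54996 bases before Dtx3l (chr16:35926515-35939027, minus strand), which overlaps Parp9 (chr16:35938470-35972621, plus strand) by 558 bases on the opposite strand. The libraries were stranded, but no source used here gives the strand setting of the counting, so reads of this overlap could have gone to either gene. Dtx3l had 14.0, 13.1 and 12.6 FPKM in the parental samples and 15.4, 16.9 and 16.5 FPKM in M8, without overlap (log2 difference 0.28, standard error 0.057, limma adjusted p = 0.00726). The ratio of Parp9 to Dtx3l was 1.53 ± 0.0478 in the parental samples and 1.52 ± 0.153 in M8 (SD, n = 3 each). In M8 samples 1 to 3 the ratio was 1.69, 1.47 and 1.40, and sample 1 had the highest Parp9 and the lowest Dtx3l value. Noncoding genes also overlap Parp1, Parp4, Parp9 and Tiparp, by 9 to 13253 bases.

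Protein-coding neighbours within 500000 bases were compared with the members, a window set with the values known. Of all genes tested, 21.2% were past the threshold and higher and 16.5% past it and lower, to be set beside each count. Around Parp12, limma called 0 of 10 tested neighbours higher (0 also at an unadjusted p below 0.05) and 2 lower. The nearest, Kdm7a, a histone demethylase 18271 bases away, was lower in M8 (log2 difference -0.54, standard error 0.087, limma adjusted p = 0.00257), and the other was Hipk2 (-0.23, limma adjusted p = 0.0864). The call of Kdm7a held in every alternative in which it was tested (it is under the filter of a mean of at least 5 FPKM), and that of Hipk2 was lost in 8 of 16, namely with no filter (-0.23), with quantile normalization (-0.20), without a trend (-0.23) and with each replicate left out but parental replicate 3 (-0.25 to -0.13). Parp9 had 7 tested neighbours and Parp14 had 8, members left out, and in both Dtx3l was the 1 past the threshold and higher. Around Parp10, 12 of 40 neighbours were higher and by limma 0 were lower (1 at an unadjusted p below 0.05), against 21.2% and 16.5% of all genes tested, and the median log2 difference of the 40 was 0.094. Among members that were not past the threshold, 5 of 16 neighbours of Parp3 and 2 of 7 of Parp2 were higher, with 1 and 2 lower. Parp4 had 1 of 5 higher and 1 lower, and Tiparp 0 of 3 higher by limma (0 also at an unadjusted p below 0.05) and 1 lower. Around Parp1, limma called 0 of 12 higher (0 also at an unadjusted p below 0.05) and 2 lower.

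**Figure D3:**
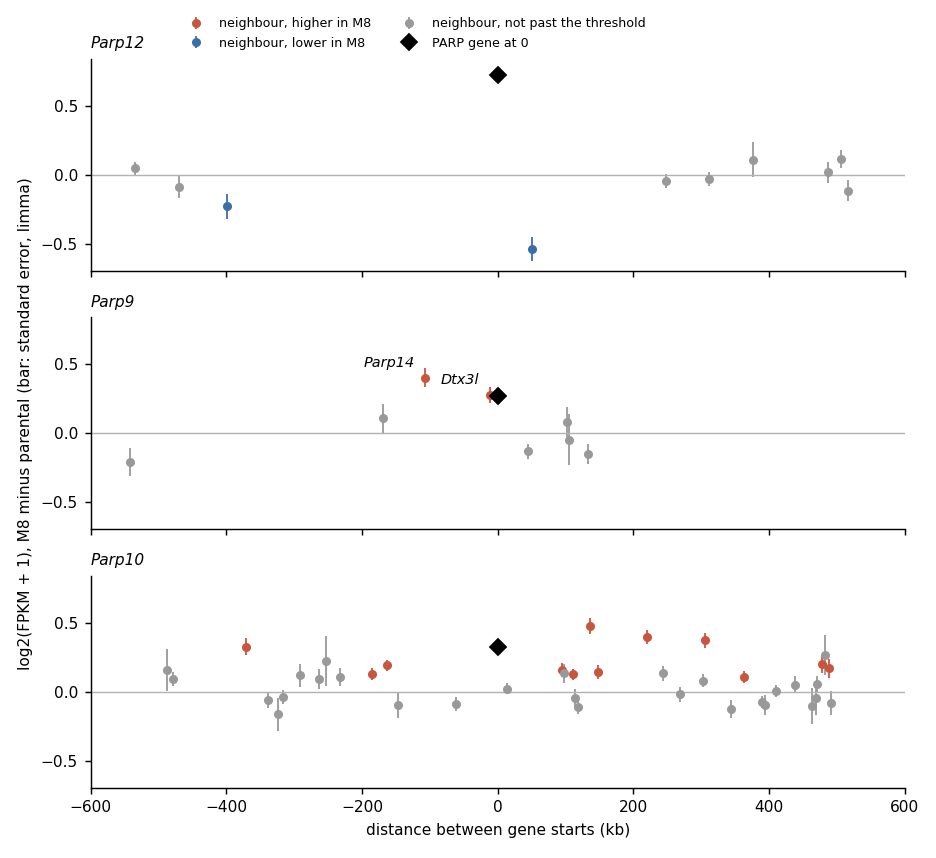
Difference in log2(FPKM + 1) between M8 and parental cells (vertical axis, limma standard error as a bar) of protein-coding neighbours by the distance of their start from that of Parp12, Parp9 and Parp10 (horizontal axis, kb), with the PARP gene as a black diamond at 0. Around Parp12 the neighbours lie between -0.54 and 0.11, around Parp9 the points past the threshold and higher are Dtx3l and Parp14, and around Parp10 12 of 40 neighbours are past the threshold and higher.

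The partners, removers and substrate supply of the family were taken from lists written from background knowledge. Of 9 genes for enzymes that remove ADP-ribose, 6 passed the filter on low values, and by limma 0 were higher (0 also at an unadjusted p below 0.05) and 1 was lower. This was Macrod1, which removes single ADP-ribose units, with 21.5, 23.1 and 22.8 FPKM in the parental samples and 13.7, 15.7 and 14.1 FPKM in M8. The lines were far apart (ratio 0.645, log2 difference -0.60, standard error 0.059, limma adjusted p = 0.000296). Parg, which degrades ADP-ribose chains, was at 8.18 ± 0.464 FPKM in the parental samples and 8.14 ± 0.574 FPKM in M8 (SD, n = 3 each; log2 difference -0.0070, limma adjusted p = 0.950). Among 6 partners and readers, 2 were higher and 2 lower. Hpf1, the cofactor that directs Parp1 and Parp2 to serine residues and is listed under its older symbol, fell from 46.3 ± 4.40 to 36.6 ± 3.15 FPKM (SD, n = 3 each; log2 difference -0.33, standard error 0.077, limma adjusted p = 0.0131). Aplf, a histone chaperone that binds ADP-ribose chains, also fell (log2 difference -0.32, limma adjusted p = 0.00971). Dtx3l (above) and Macroh2a1 (log2 difference 0.13, limma adjusted p = 0.0595), a histone variant with a macrodomain, were higher. Macroh2a1 was not past the threshold in 9 of the 16 alternatives, among them TPM (0.096), upper-quartile scaling (0.10), quantile normalization (0.058) and the fit without a trend (0.13), and it was past it with a replicate left out only without parental replicate 3 (0.095 to 0.14 in the other 5 fits).

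Of 16 tested genes of base excision and single-strand break repair, the pathways that Parp1 and Parp2 serve, 3 were higher and 1 was lower. Apex1, the main abasic site endonuclease, rose from 14.9 ± 2.17 to 19.2 ± 0.588 FPKM (SD, n = 3 each; log2 difference 0.36, standard error 0.087, limma adjusted p = 0.0152). Tdp1, which repairs DNA ends blocked by topoisomerase, was higher too (log2 difference 0.20, limma adjusted p = 0.0119). Apex2 was higher (0.20, limma adjusted p = 0.0924), but without parental replicate 2 or 3 or M8 replicate 1 or 2 it was not past the threshold (0.13 to 0.22), nor was it with no filter (0.20), TPM (0.18) or upper-quartile scaling (0.18). The repair polymerase Polb was lower (-0.23, limma adjusted p = 0.0294), and without M8 replicate 2 (-0.17) it was not past it. Xrcc1, the scaffold recruited by ADP-ribose chains, had 36.9 ± 1.66 and 38.7 ± 0.421 FPKM (SD, n = 3 each; log2 difference 0.067, limma adjusted p = 0.295), and the alkyladenine glycosylase Mpg had a log2 difference of -0.048 (limma adjusted p = 0.746). Leaving out a replicate gave 0.041 to 0.10 for Xrcc1 and -0.11 to 0.067 for Mpg, and quantile normalization gave 0.0035 for Xrcc1.

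For NAD, the substrate of PARPs, 9 supply genes were tested, and 1 was higher and 2 were lower. Nampt, the rate-limiting enzyme of NAD salvage, had 31.8, 32.8 and 33.3 FPKM in the parental samples and 33.4, 34.6 and 35.6 FPKM in M8. It did not overlap but was not past the threshold (log2 difference 0.079, limma adjusted p = 0.205). Nnmt, which methylates nicotinamide, was higher (0.19, limma adjusted p = 0.0319), whereas the mitochondrial NAD carrier Slc25a51 (-0.16, limma adjusted p = 0.0558) and the NAD synthetase Nadsyn1 (-0.26, limma adjusted p = 0.0974) were lower. Among 7 tested other NAD consumers, by limma 0 were higher (0 also at an unadjusted p below 0.05) and 2 were lower, the mitochondrial sirtuins Sirt3 (-0.18, limma adjusted p = 0.0430) and Sirt4 (-0.35, limma adjusted p = 0.0324). Leaving out M8 replicate 1 took Nnmt (0.17), Slc25a51 (-0.15), Nadsyn1 (-0.31) and Sirt3 (-0.17) below the threshold. So did leaving out M8 replicate 2, with values of 0.17, -0.13, -0.29 and -0.17. Without parental replicate 2 Nnmt (0.14) and Slc25a51 (-0.12) were not past it, without parental replicate 1 Sirt3 (-0.15) and Nadsyn1 (-0.18) were not, and Nadsyn1 was also not past it without parental replicate 3 (-0.29) or M8 replicate 3 (-0.19), with no filter (-0.26) or with quantile normalization (-0.19).

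The genes tied to single members showed the following. For Parp4, the vault genes Mvp (log2 difference -0.098, limma adjusted p = 0.156) and Tep1 (-0.036, limma adjusted p = 0.730) were not past the threshold, and by limma 0 of the 2 were at an unadjusted p below 0.05. Mvp was past it and lower with TPM (-0.14), upper-quartile scaling (-0.12) and quantile normalization (-0.17) and without M8 replicate 2 (-0.14). For Tiparp, 3 of 8 genes of the aryl hydrocarbon receptor axis could be tested. The receptor Ahr had 10.3 ± 0.346 and 9.13 ± 0.779 FPKM (SD, n = 3 each). Its lines overlapped, with a log2 difference of -0.16 (limma adjusted p = 0.0936), and without parental replicate 2 or 3 or M8 replicate 1 or 2 (-0.16 to -0.12) it was not past the threshold, nor with no filter (-0.16) or quantile normalization (-0.14). Its partner Arnt was not either (-0.062, limma adjusted p = 0.343). The receptor targets Cyp1a1, Cyp1a2, Cyp1b1, Ahrr and Nqo1 were under the filter.

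For the interferon-linked members, 11 of 13 genes of interferon signalling were tested. Of these, 3 were higher and 1 was lower, against 21.2% and 16.5% of all genes tested. The other 7 were not past the threshold, and the median log2 difference of the 11 was -0.024. Irf7, a transcription factor that amplifies the interferon response, had 331.0, 348.3 and 338.5 FPKM in the parental samples and 443.4, 445.4 and 438.8 FPKM in M8, without overlap (log2 difference 0.38, standard error 0.037, limma adjusted p = 0.000267). Stat2, a subunit of the factor activated by type I interferon, was higher as well (0.32, limma adjusted p = 0.00488), and the kinase Tyk2 was lower (-0.29, limma adjusted p = 0.0122). The last of the higher genes, Irf9, is given although the rule for named genes does not reach it (0.12, limma adjusted p = 0.0444), and it was not past the threshold with TPM (0.086), with quantile normalization (0.048) or without M8 replicate 2 (0.11) or 3 (0.12). The interferon genes Ifnb1 (0 to 0.453 FPKM) and Ifng (0 to 0.125 FPKM) were under the filter in these samples. Over all 9 lists, 11 of 66 tested genes were higher and 11 were lower, where 21.2% and 16.5% of all genes tested were, and 18 of 84 were under the filter.

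**Figure D4:**
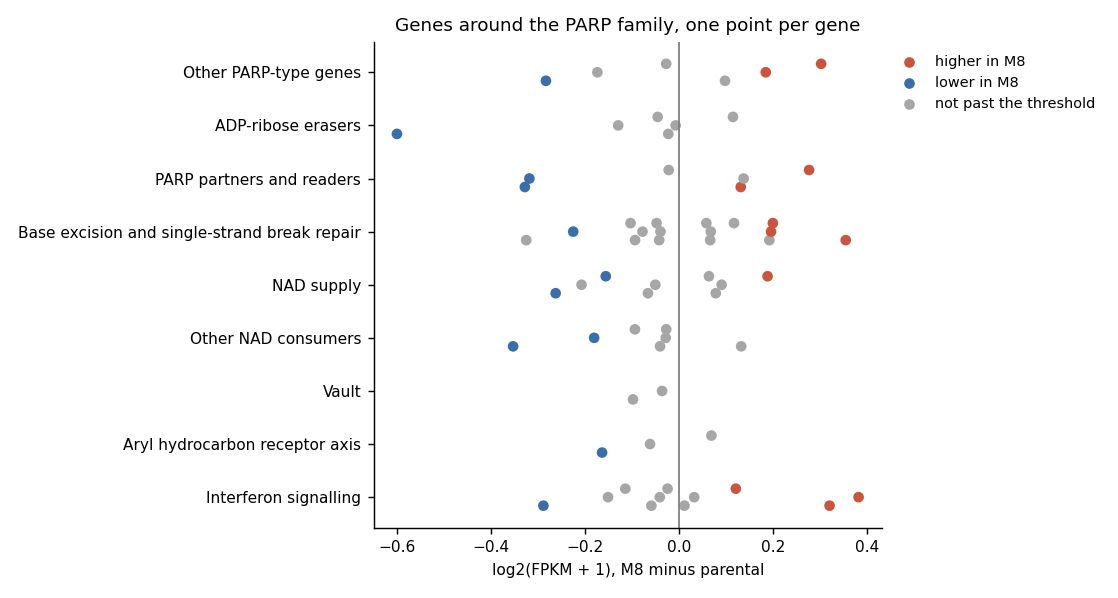
Difference in log2(FPKM + 1) between M8 and parental cells (horizontal axis) of the 66 tested genes of 9 lists around the PARP family, 1 point per gene and 1 row per list, red where higher and blue where lower past the limma threshold and grey otherwise. The lowest point is Macrod1 at -0.60 and the highest Irf7 at 0.38.

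The genes most like Parp12 across samples were ranked by Pearson's r of log2(FPKM + 1) over the 6 samples, among 8301 named genes with a mean of at least 5 FPKM. With 2 lines most of such an r is the difference between them, so r of the deviations from each line's mean is given beside it, all from the same 6 libraries. For the first 5 genes it is no separate check, as their choice by r over these samples favours a high r within lines. The first was Mbd3, a subunit of the NuRD chromatin complex (r = 0.999, within lines 0.976), followed by the RNA-binding protein gene Ewsr1 (0.999, within lines 0.909), Ccdc86 (0.998, within lines 0.935), the respiratory complex I subunit Ndufs1 (0.998, within lines 0.859) and the phosphatase activator Ppp2r4 (0.998, within lines 0.844). Mbd3 had 78.4 ± 1.12 FPKM in the parental samples and 108.4 ± 4.56 FPKM in M8 (SD, n = 3 each). Parp10 ranked 56 (0.992, within lines 0.813). The other interferon-linked members were further down, with Parp9 at rank 648 (0.951, within lines 0.728) and Parp14 at rank 919 (0.931, within lines 0.132).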

How the data were processed

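The authors made stranded mRNA libraries, aligned single-end reads to mm10 (TopHat) and computed FPKM values (Cufflinks). The submitters' processing notes name TopHat2 2.1.1, Bowtie2 2.2.8, SAMtools 0.1.18 and Cuffdiff 2.2.1. The deposited FPKM values cover 24346 symbols in each of 6 samples, and the gene annotation is not given in the sources used here. FPKM values give no counting error.

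Genes with a mean of at least 1 FPKM (10597) entered a limma 3.58.1 fit (R 4.3.3, lmFit, eBayes with a trend) on log2(FPKM + 1), 3 samples against 3, with Benjamini-Hochberg adjustment, two-sided, and the study's threshold of 0.1. The fit was tested on simulated data. Python 3.11.15 with pandas 2.3.3 and matplotlib 3.10.9 served for summaries and plots. Alternatives were pseudocounts of 0.5 and 0.1, no filter, a mean of at least 5 FPKM, TPM, upper-quartile scaling, quantile normalization, median centring, no trend, an adjusted p below 0.05 for the counts, a block on the replicate number, and leaving out each replicate.

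The 10 members, their classes and the 9 lists were chosen with earlier results of these data known. Genes named are the members, all other PARP-type genes, in each other list the 3 past the threshold with the largest difference, Dtx3l, Hpf1, Parg, Xrcc1, Mpg, Nampt, Mvp, Tep1, Ahr and Arnt in any case, and the 5 genes most like Parp12 with predicted genes left out. Tdp1, Macroh2a1, Irf9, Kdm7a, Hipk2 and genes under the filter were named after their values were seen, and the alternatives for Kdm7a and Hipk2 were added after seeing the data. 1 gene of the interferon signalling list is not reported here. Older symbols were matched through RefSeq. Gene positions and start windows are those of RefSeq for GRCm38.p6, the assembly mm10 was built from.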

Additional observations from a re-analysis of the deposited data

How the results depend on the processing

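No result changed direction past the threshold. The median log2 difference of the other PARPs moved from -0.047 to -0.084 with TPM. It was -0.071 to -0.025 with a replicate left out and -0.022 with quantile normalization. The number of members past the threshold and lower in M8 went from 0 to 1 (Parp8) with TPM and with upper-quartile scaling (1), and was 0 to 1 with each replicate left out in turn. The number of list genes higher in M8 was 11 and became 7 to 13 with a replicate left out, being 7 without M8 replicate 2. The number lower was also 11 and became 7 to 12 with a replicate left out, being 7 without M8 replicate 1 and without M8 replicate 2. Over all genes, 2250 higher and 1745 lower became 1658 and 2209 with TPM and 1848 and 2154 with upper-quartile scaling, and 1612 and 1150 without M8 replicate 1. With a replicate left out in turn, 1150 to 1678 genes were lower. For the list genes, TPM gave 8 higher and 14 lower against 11 and 11. Of the other values, the log2 differences of Parp12 (0.67) and Parp10 (0.27) under quantile normalization and of Parp4 under TPM moved by more than the replicate SD, and calls of the other genes named from the lists or as neighbours of Parp12 were lost in 51 cases and gained in 4 (Mvp alone). Genes named only for their likeness to Parp12 were not run. The cause was not tested.

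Deviations of samples with the same replicate number correlated at 0.10, -0.11 and -0.033, against -0.13 to 0.18 for different numbers. From 3 samples per line, whether the numbers pair the samples cannot be told, and the labels do not say. With the replicate number as a block, 2171 genes were higher and 1688 lower, 5 members were higher and 0 lower, and 11 list genes were higher and 12 lower. The median of the interferon-linked PARPs was 0.36. The number of samples, 3 per line, limits the precision, and the effect of the lower depth of M8 on it was not tested.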
